A study of Rattus norvegicus with 13 samples.

Results

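The genes described here are 7 established transcriptional targets of the corticosteroid receptors: Sgk1, Fkbp5, Tsc22d3, Per1, Zbtb16, Klf9 and Dusp1. They were taken as a named list, by matching their symbols to the gene identifiers of the day 3 libraries, and all 7 were found among 28357 genes and passed the filter on low counts, which left 14762 genes. RNA had been sequenced from the peripheral cornea and limboscleral tissue of wild-type Lewis rats, all male and 2 months old, that had limbal stem cell deficiency and corneal neovascularization. The spironolactone day 3 group (n = 3 libraries) received systemic spironolactone at 25 mg/kg/day by daily subcutaneous injection. The vehicle day 3 group (n = 3 libraries) received olive oil with DMSO, and both groups share the corneal model, for which no source used here gives the means of induction. The labels' protocol gives 3 days of treatment. The day 7 libraries (3 spironolactone and 4 vehicle) carry gene identifiers that no table used here pairs with symbols, so these genes are not analysed here at day 7. Whether each library is a different animal is not stated in the labels, and every p-value reflects only library-to-library spread, which may be technical.

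Cortisol and corticosterone bind both the glucocorticoid receptor (Nr3c1) and the mineralocorticoid receptor (Nr3c2), while aldosterone acts on the second. Both are ligand-activated transcription factors that recognise the same palindromic DNA element, so that many target genes respond to either receptor. Spironolactone is a competitive antagonist of the mineralocorticoid receptor. The comparison asked whether transcripts of the shared target genes in peripheral cornea and limboscleral tissue differed between rats given spironolactone and vehicle.

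The 5′ flanking sequences below are shown because both receptors recognise their targets through a DNA element, which was searched for there. RefSeq (build GRCr8) gave 10 windows of 250 bases before an annotated start for 6 of the genes; Zbtb16 is named only. The windows of Sgk1, Per1 and Klf9, which had the lowest p-values among the 7 genes, and of Dusp1, which held the most kinds of motif, are printed 5′ to 3′. For Sgk1, with 3 annotated starts, the window of the start furthest downstream is given. Capitals mark 4 motifs on either strand: the SP1 box GGGCGG, the TATA box TATAAA, the E-box CACGTG and the cyclic AMP response half-element TGACG, which lies within the longer palindrome TGACGTCA. The Per1 window holds none of them.
Sgk1 window, chr1:24804832-24805081, strand minus: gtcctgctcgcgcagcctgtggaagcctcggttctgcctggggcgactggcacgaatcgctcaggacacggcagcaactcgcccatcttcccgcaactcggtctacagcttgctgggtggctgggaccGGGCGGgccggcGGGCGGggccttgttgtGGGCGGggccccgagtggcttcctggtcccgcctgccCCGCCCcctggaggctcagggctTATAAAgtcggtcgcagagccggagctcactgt
Per1 window, chr10:54304126-54304375, strand plus: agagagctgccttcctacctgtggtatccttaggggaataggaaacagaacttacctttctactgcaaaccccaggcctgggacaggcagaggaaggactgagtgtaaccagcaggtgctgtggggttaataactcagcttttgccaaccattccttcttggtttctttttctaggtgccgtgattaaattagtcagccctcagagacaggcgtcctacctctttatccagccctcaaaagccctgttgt
Klf9 window, chr1:230126396-230126645, strand plus: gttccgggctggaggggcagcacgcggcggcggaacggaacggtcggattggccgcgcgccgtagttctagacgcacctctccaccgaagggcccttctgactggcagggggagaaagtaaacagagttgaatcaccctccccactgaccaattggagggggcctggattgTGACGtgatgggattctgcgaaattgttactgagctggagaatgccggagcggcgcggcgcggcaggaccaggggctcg
Dusp1 window, chr10:17184603-17184852, strand plus: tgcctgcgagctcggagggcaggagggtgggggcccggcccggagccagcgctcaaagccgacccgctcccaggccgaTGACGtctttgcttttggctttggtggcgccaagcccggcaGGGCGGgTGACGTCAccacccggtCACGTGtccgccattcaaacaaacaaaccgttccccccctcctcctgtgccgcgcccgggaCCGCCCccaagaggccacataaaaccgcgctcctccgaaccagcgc

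The receptors' full palindrome, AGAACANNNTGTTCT, was found in 0 of the 10 windows, against 0.012% of all 33469 windows in the table. Its half-site TGTTCT, searched on both strands, was in 0 of the 10 windows and in 17.5% of all windows. In Dusp1 the cyclic AMP response element TGACGTCA began 124 bases before the start, and 1.59% of all windows held it. The Dusp1 window also held CACGTG, which was in 5.59% of all windows. The shorter TGACG was in 3 of the 10 windows (Dusp1, Klf9 and Tsc22d3) and in 18.2% of all windows. The D-box TTATGTAA of clock-controlled genes was in 0 of the 10 windows and in 0.828% of all windows. The Sgk1 window had TATAAA 33 bases before the start, and GGGCGG 4 times on either strand. TATAAA was in 3 of the 10 windows and 12.9% of all windows, and GGGCGG in 6 of the 10 and 30.5% of all. A match is a description of these letters, and a missing match says only that the letters are not in this window.

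Sgk1, Per1 and Klf9 had lower values with spironolactone, by 22%, 25.6% and 19.3% of the vehicle mean, and Zbtb16 had a mean 2.11 times that with vehicle. In CPM only Per1 and Klf9 did not overlap between the groups, where 16.1% of all genes were lower and 16% higher without overlap. The ranges of Sgk1, Fkbp5, Tsc22d3, Zbtb16 and Dusp1 overlapped, and of these Fkbp5, Tsc22d3 and Dusp1 had no unadjusted p under 0.05. None of the 7 passed edgeR's quasi-likelihood test with Benjamini-Hochberg adjustment over all 14762 genes at 0.05, and 0% of all genes did. At an unadjusted p under 0.05 stood 3 of the 7 with lower values (Sgk1, Per1 and Klf9) and 1 with a higher value (Zbtb16), against 10.4% of all genes lower and 12.2% higher (22.6% in either direction). By DESeq2, 1 of the 7 (Sgk1) was called lower at an adjusted p under 0.05, against 3.55% of all genes called lower and 6.13% called higher (9.67% in either direction). Negative log2 fold changes were found in 5 of the 7 and in 51.6% of all genes, with medians of -0.13 for the 7 and -0.01 for all genes. Which of the 7 had an unadjusted p under 0.05 depended on single libraries. With both libraries numbered 3 left out they were Sgk1 and Per1, both lower, against 13.4% of all genes lower and 12.3% higher. In that fit Sgk1 passed edgeR's adjusted threshold, which 7.02% of all genes passed and 2.61% passed as lower. Without vehicle replicate 2 none of the 7 had such a p, where the share of all genes was 5.17% lower and 8.59% higher. Without vehicle replicate 1 only Per1 and Klf9 had such a p, where 6.27% of all genes were lower and 7.94% higher. Without vehicle replicate 3 Sgk1, Per1 and Zbtb16 had such a p and Klf9 did not, against 10.6% of all genes lower and 12.8% higher, and 0 of the 7 and 5.27% of all genes passed the adjusted threshold. Without spironolactone replicate 2 Klf9 had no such p, while Sgk1, Per1, Zbtb16 and Fkbp5 did, Fkbp5 with a higher value (log2 fold change 0.30), against 10.8% of all genes lower and 9.29% higher. Zbtb16 had no such p without spironolactone replicate 1, where 12.3% of all genes were higher, nor without spironolactone replicate 3, where 10.6% were. With limma-voom Zbtb16 had none either, where 12.2% of all genes were higher. Log2 fold changes are spironolactone over vehicle throughout.

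**Figure D1:**
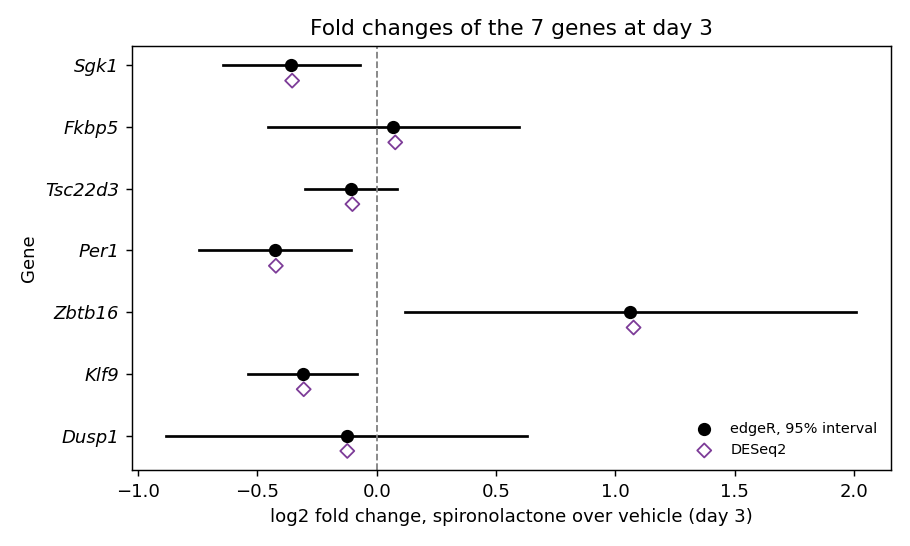
Log2 fold change of each gene, spironolactone over vehicle at day 3, with edgeR's estimate and its 95% interval (filled circles and lines) and DESeq2's estimate (open diamonds). The intervals of Sgk1, Per1 and Klf9 lie below 0, that of Zbtb16 lies above 0, and those of Fkbp5, Tsc22d3 and Dusp1 span it; the intervals are not adjusted for the number of genes tested.

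Library depth ran from 18.2 to 25.3 M expected counts with spironolactone and from 22.1 to 23.5 M with vehicle. Values per gene are given as CPM, the count scaled to library size, and as TPM, which is also scaled to transcript length. Marker sums of several tissues did not overlap between the groups. Summed over 9 measured corneal and limbal epithelial markers, the level was 13903 to 16560 TPM with spironolactone and 8168 to 11417 TPM with vehicle. The 12 measured skeletal muscle markers summed to 178 to 300.1 TPM with spironolactone and 596 to 1293 TPM with vehicle. Blood endothelial markers summed to 179 to 225 TPM against 243 to 343 TPM with vehicle, and 7 stromal fibroblast markers to 6108 to 6756 TPM against 6766 to 7249 TPM with vehicle. Myeloid markers (285 to 353 TPM with spironolactone, 343 to 443 TPM with vehicle) and lymphocyte markers (74.8 to 91.5 TPM with spironolactone, 84.7 to 123 TPM with vehicle) overlapped between the groups. The libraries numbered 3 stood apart: 9 retina markers summed to 616 TPM in spironolactone replicate 3, against 3342 and 4205 TPM in the other spironolactone libraries and 4998 to 5569 TPM with vehicle. The 8 lens markers summed to 101 to 124 TPM with spironolactone and 131 to 1066 TPM with vehicle, highest in vehicle replicate 3. The lens gene Mip was at 0 in 3 libraries and the B cell gene Cd79a in 1, and all measured epithelial, muscle, retina, stromal, endothelial and myeloid markers were above 0 in every library. Mitochondrial genes took 4.3% to 5% of counts with spironolactone and 5.28% to 5.64% with vehicle. In bulk tissue, fewer cells of a type and less RNA per cell cannot be told apart, and the part of tissue composition in the results below was not tested.

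**Figure D2:**
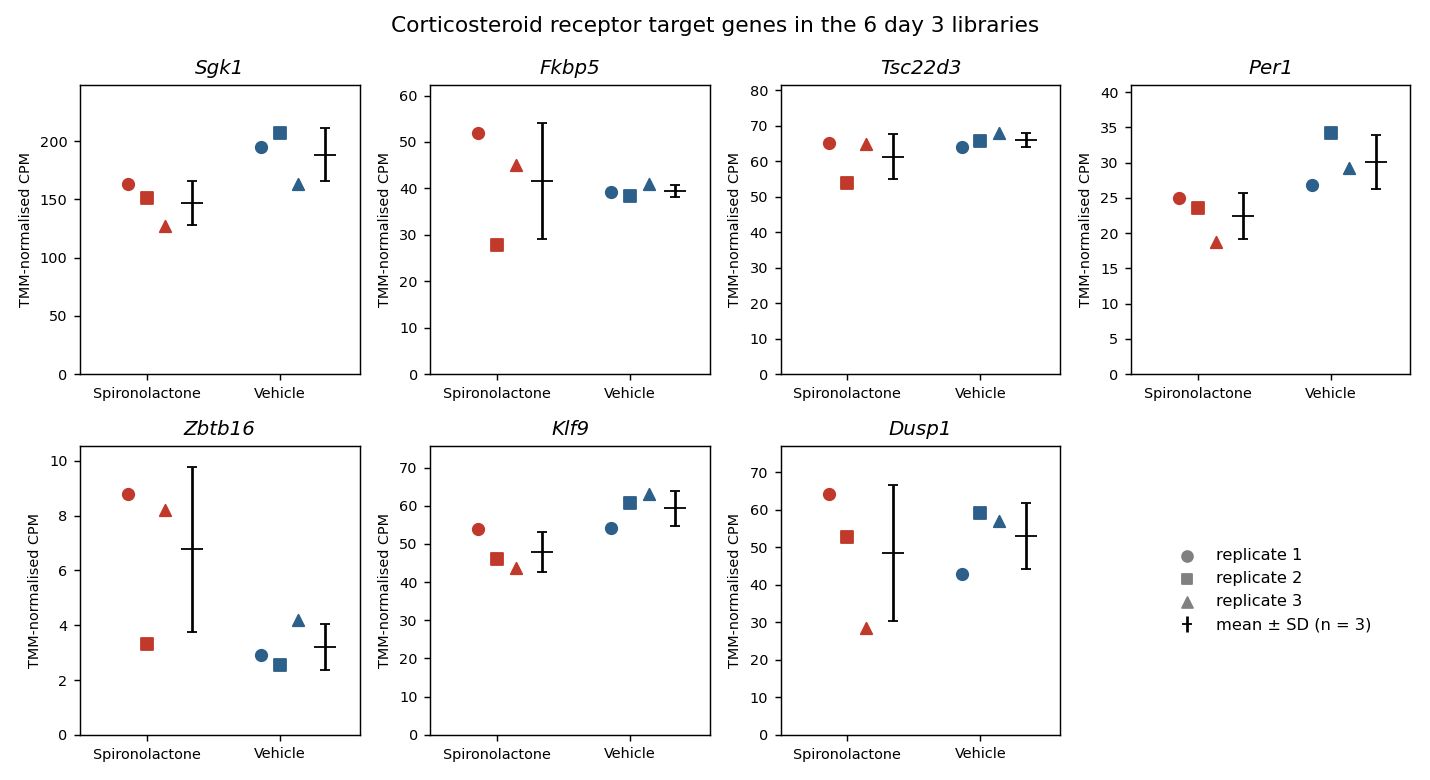
TMM-normalised CPM (y axis from 0) of each gene in the 3 spironolactone and 3 vehicle libraries of day 3. Symbols mark the replicate number and bars the mean and SD (n = 3). Per1 and Klf9 do not overlap between the groups, Sgk1 overlaps by a single pair of nearly equal libraries, and Fkbp5, Zbtb16 and Dusp1 are widely spread with spironolactone.

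Sgk1 encodes a serine-threonine kinase that keeps epithelial sodium channels at the cell surface and is induced by both receptors. It had 163, 151 and 127 CPM in the spironolactone libraries (replicates 1 to 3), against 195, 207 and 163 CPM in the vehicle libraries. All 3 spironolactone values lay below vehicle replicates 1 and 2, and spironolactone replicate 1 was level with vehicle replicate 3. Relative to vehicle this was a log2 fold change of -0.36 (SE 0.12), a fold of 0.78 with a 95% interval from 0.639 to 0.952. The adjusted p was 0.156 in edgeR and 0.0487 in DESeq2, so the call rests on the method. The spread between libraries (12.6% of the mean with spironolactone and 12% with vehicle) was far above the counting error of about 1.81% and 1.51%. On the TPM scale the groups did not overlap, with 80.8 to 105 TPM against 108 to 139 TPM with vehicle. These TPM values are as deposited, without TMM scaling, and the share of all genes without overlap in TPM was not counted. The endothelial, muscle, stromal, retina and lens marker sums given above were likewise lower with spironolactone without overlap, the stromal sums narrowly. In CPM, 11 of 12 tested muscle, 8 of 9 retina and 5 of 8 endothelial markers were lower without overlap. For stromal and lens markers it was 2 of 7 each, against 16.1% of all genes. The part of these tissues in the Sgk1 values was not tested.

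Dusp1 encodes a nuclear phosphatase that switches off MAP kinases and is induced by glucocorticoids as well as by growth factors and stress. It had 64.2, 52.7 and 28.6 CPM with spironolactone, against 42.8, 59.1 and 56.9 CPM with vehicle. Spironolactone replicate 1 was the highest and replicate 3 the lowest of all 6 libraries, so the vehicle range lay within the spironolactone range. The log2 fold change was -0.13 (SE 0.31, adjusted p = 0.826 by edgeR), and without spironolactone replicate 3 it was 0.14. With a 95% interval of the fold from 0.543 to 1.55, no difference in Dusp1 was detectable, and the interval holds changes in both directions.

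Fkbp5 encodes a co-chaperone that binds the receptor complex, lowers its affinity for hormone and is itself induced by the hormone. It had 51.9, 27.8 and 45.1 CPM with spironolactone, against 39.3, 38.3 and 40.9 CPM with vehicle. Spironolactone replicate 2 was the lowest and replicates 1 and 3 the highest of all 6 libraries, while the 3 vehicle libraries lay close together. The coefficient of variation was 29.9% with spironolactone and 3.25% with vehicle, where counting error alone gives 3.46% and 3.29%. The difference between these coefficients was not tested. On the log2 scale the difference was 0.07 (SE 0.22, adjusted p = 0.866 by edgeR), it was -0.12 without spironolactone replicate 1, and the 95% interval of the fold ran from 0.729 to 1.51.

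Tsc22d3 encodes the leucine zipper protein GILZ, an anti-inflammatory mediator of glucocorticoids that is also induced by aldosterone in kidney epithelium. It had 65.0, 54.0 and 64.9 CPM with spironolactone, against 64.1, 65.7 and 67.9 CPM with vehicle. Spironolactone replicate 2 was again the lowest of all 6 libraries and the other 5 differed little. The log2 fold change was -0.11 (SE 0.082, adjusted p = 0.456 by edgeR), with a 95% interval of the fold from 0.813 to 1.06, the narrowest of the 7 genes. On the TPM scale its groups did not overlap, at 45.3 to 53.9 TPM against 56.0 to 58.0 TPM with vehicle, whereas in CPM they did. As for Sgk1, the share of all genes without overlap in TPM was not counted. The files list 1 transcript for Tsc22d3, so its isoforms are not distinguished.

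Per1 encodes a repressor of the circadian clock and is also induced acutely by glucocorticoids in many tissues. It had 24.9, 23.5 and 18.7 CPM with spironolactone, against 26.8, 34.2 and 29.3 CPM with vehicle. Every spironolactone library lay below every vehicle library, which was the case for 2 of the 7 genes (Per1 and Klf9) and for 16.1% of all genes, while none of the 7 and 16% of all genes were higher without overlap. Its log2 fold change of -0.43 (SE 0.13) came with a 95% interval of the fold from 0.597 to 0.927. The adjusted p was 0.135 in edgeR and 0.0626 in DESeq2, and neither passed the threshold.

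Klf9 encodes a Krüppel-like repressor of proliferation that is induced by glucocorticoids and thyroid hormone. It had 53.9, 46.1 and 43.6 CPM with spironolactone, against 54.1, 60.6 and 63.1 CPM with vehicle. The groups did not overlap, but spironolactone replicate 1 and vehicle replicate 1 were 0.263 CPM apart. For Klf9 the log2 fold change was -0.31 (SE 0.096), with a 95% interval of the fold from 0.689 to 0.945. The adjusted p was 0.132 in edgeR, the lowest of the 7 genes, and 0.0783 in DESeq2. Leaving out both libraries numbered 3 gave a log2 fold change of -0.20, over 1.5 times smaller.

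Zbtb16 encodes the zinc finger repressor PLZF, which has a low baseline level in many tissues and a strong response to glucocorticoids. It had 8.79, 3.30 and 8.20 CPM with spironolactone, against 2.90, 2.55 and 4.17 CPM with vehicle. Replicates 1 and 3 of spironolactone were the highest of all 6 libraries, while replicate 2 lay within the vehicle range. The expected counts behind these values were 156, 82 and 164 with spironolactone and 70, 57 and 99 with vehicle, for which counting error is 8.64% and 11.5% of the mean. The observed spread was 44.5% with spironolactone and 26.5% with vehicle. The log2 fold change was 1.06 (SE 0.40), and the 95% interval of the fold was wide, from 1.09 to 4.03. The adjusted p was 0.185 in edgeR and 0.0748 in DESeq2. Without spironolactone replicate 2 the log2 fold change was 1.40, still short of the threshold (adjusted p = 0.166 by edgeR).

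**Figure D3:**
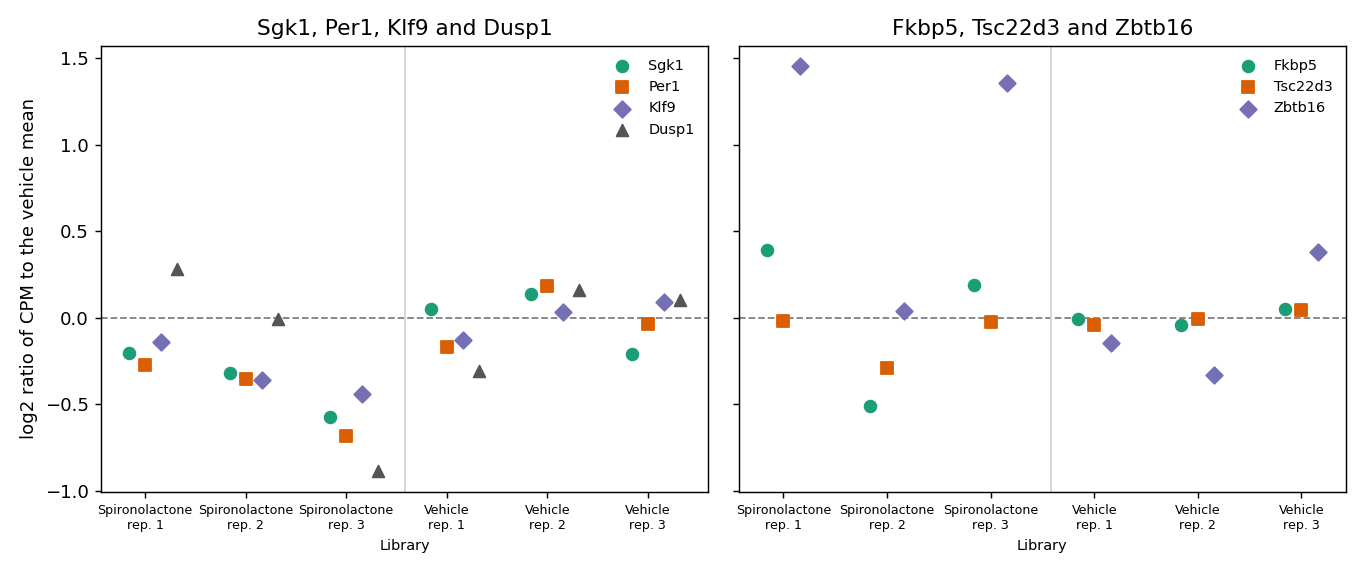
Log2 ratio of each library's CPM to the vehicle mean of the same gene (y axis) in the 6 day 3 libraries (x axis); points of 1 library are offset sideways for legibility. In the left panel spironolactone replicate 3 has the lowest value for all 4 genes, and in the right panel spironolactone replicate 2 has the lowest spironolactone value for all 3 genes. The genes were placed in panels after their values were seen.

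The 7 genes did not vary as 1 block across the libraries. Spironolactone replicate 3 held the lowest of all 6 values for Sgk1, Per1, Klf9 and Dusp1, at log2 ratios to the vehicle mean of -0.57, -0.68, -0.44 and -0.89. The same library had Fkbp5 and Zbtb16 above the vehicle mean, at 0.19 and 1.35. In spironolactone replicate 2, Fkbp5 was below the vehicle mean, at -0.51, and Zbtb16 was level with vehicle at 0.04. Across the 6 libraries, which share depth and tissue differences, log2 CPM of Per1 correlated with that of Klf9 at r = 0.91 and with that of Sgk1 at r = 0.89. Fkbp5 correlated with Tsc22d3 at r = 0.80 and with Zbtb16 at r = 0.70, but with Sgk1 at r = -0.08. Tsc22d3, however, correlated with Zbtb16 at only r = 0.23 and with Klf9 at r = 0.59, and Sgk1 correlated with Dusp1 at r = 0.57. The coefficients therefore did not sort the genes cleanly into separate sets, and only some of the pairs are given here. These coefficients describe 6 libraries, include the difference between the groups and carry no test. Spironolactone replicate 3 is the library with the lowest retina markers, and the part of these markers in its low values was not tested.

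Compared per transcript length, the order of mean TPM was the same with spironolactone and vehicle. Sgk1 was the most abundant, at 94.6 ± 12.4 TPM with spironolactone and 126 ± 16.5 TPM with vehicle (SD, n = 3 each). It was followed by Tsc22d3 (50.9 and 57.1 TPM with spironolactone and vehicle), Dusp1 (40.4 and 45.8 TPM) and Klf9 (30 and 38.7 TPM). Fkbp5 (18.9 and 18.7 TPM), Per1 (8.45 and 11.8 TPM) and Zbtb16 (4.03 and 1.99 TPM) were the lowest. The neighbours Dusp1 and Klf9 overlapped in both groups, and Tsc22d3 and Dusp1 overlapped with spironolactone but not with vehicle. The other neighbours did not overlap in either group, where Fkbp5 at its lowest (12.8 TPM) was still above Per1 at its highest with spironolactone (9.38 TPM). Among all genes in a library, Sgk1 ranked between 1022 and 1837 from the top and Zbtb16 between 11060 and 13476.

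Neither receptor passed the test. Nr3c1 had 164, 167 and 137 CPM with spironolactone, against 169, 176 and 170 CPM with vehicle. Every spironolactone library lay below every vehicle library, by a small margin for replicates 1 and 2. Nr3c1 averaged 156 ± 16.5 CPM in spironolactone libraries and 171 ± 3.86 CPM in vehicle libraries (SD, n = 3 each, adjusted p = 0.351 by edgeR), and Nr3c2 averaged 11.8 ± 1.81 CPM in spironolactone libraries and 12.5 ± 0.806 CPM in vehicle libraries (adjusted p = 0.722 by edgeR). The enzymes that regenerate and inactivate corticosterone, Hsd11b1 and Hsd11b2, showed log2 fold changes of -0.25 (SE 0.18) for the first and -0.41 (SE 0.28) for the second. Hsd11b2, which protects the mineralocorticoid receptor from corticosterone, averaged 0.843 CPM in spironolactone libraries and 1.11 CPM in vehicle libraries. All 4 had negative log2 fold changes, as had 51.6% of all genes, but none had an unadjusted p under 0.05.

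Other genes of corticosteroid signalling, and genes related to the 7 in other ways, were taken from 8 lists. Together these held 119 genes beside the 7, of which 112 were tested. None passed edgeR at an adjusted p of 0.05, as for all genes. At an unadjusted p under 0.05, 25 were lower (22.3%) and 14 higher (12.5%), against 10.4% and 12.2% of all genes. DESeq2 called 13 lower and 8 higher at an adjusted p under 0.05, where it called 3.55% of all genes lower and 6.13% higher. The median log2 fold change was -0.11, against -0.01 over all genes. Some genes stand on more than 1 list, and these are counted once here. The pooled shares are not those of corticosteroid signalling alone. Lower at an unadjusted p under 0.05 were 0% of receptors and enzymes and 0% of chaperones and coregulators. It was 19.4% of other glucocorticoid-induced genes and 20% of sodium transport genes. Among clock genes and MAP kinase phosphatases it was 22.2% each, among immediate-early genes 33.3% and among relatives of the 7 36.4%.

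**Figure D4:**
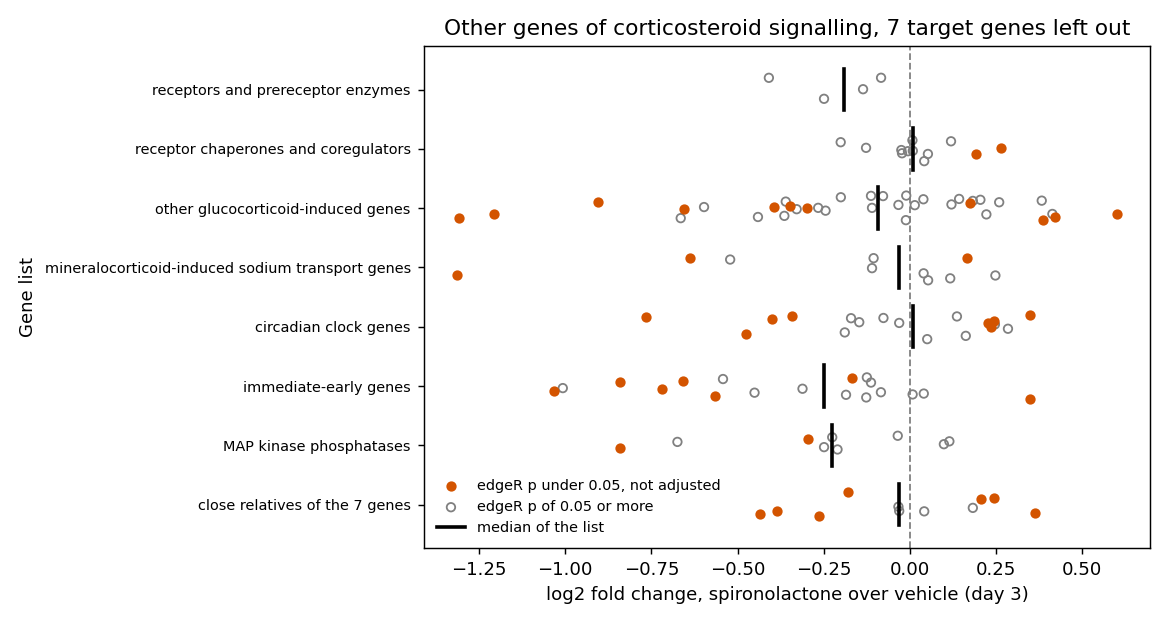
Log2 fold change (x axis) of each tested gene in the 8 lists (rows), spironolactone over vehicle at day 3, with the 7 target genes left out. Filled points have an unadjusted edgeR p under 0.05, open points do not, and bars mark the list median, which is -0.25 for immediate-early genes and 0.01 for clock genes.

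Other glucocorticoid-induced genes had values in both directions. Of 36 tested, 22 had negative log2 fold changes (61.1%, against 51.6% of all genes) and 14 positive ones, with a median of -0.09. At an unadjusted p under 0.05 stood 7 lower (19.4%) and 4 higher (11.1%), against 10.4% and 12.2% of all genes. The 3 with the lowest p were all higher with spironolactone. Anxa1, which encodes the anti-inflammatory protein annexin A1 and is abundant in epithelium, had 7306 ± 540 CPM against 4814 ± 988 CPM with vehicle (SD, n = 3 each), a log2 fold change of 0.60 (adjusted p = 0.0869 by edgeR). Snai2, a transcription factor, had 0.42, and Slc38a2, an amino acid transporter, had 0.17. The epithelial marker sum was also higher in the same 3 libraries, and its part in these values was not tested. Cebpd, an acute-phase transcription factor named here after its values were seen, had 16.3, 15.9 and 13.1 CPM with spironolactone, against 57.3, 37.0 and 18.1 CPM with vehicle. Its groups did not overlap, and most of the difference came from vehicle replicates 1 and 2 (log2 fold change -1.31, SE 0.42, adjusted p = 0.159 by edgeR and 0.00317 by DESeq2).

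Of 10 tested sodium transport genes beside Sgk1 and Tsc22d3, 2 were lower (20%) and 1 higher (10%) at an unadjusted p under 0.05. Among all genes these shares were 10.4% and 12.2%, and the median log2 fold change of the 10 was -0.03. Usp2, a deubiquitinase induced by aldosterone in kidney, had 12.4, 13.4 and 8.05 CPM with spironolactone, against 15.6, 18 and 19 CPM with vehicle. Its groups did not overlap, and the log2 fold change was -0.64 (SE 0.19, adjusted p = 0.124 by edgeR). Scnn1g, the gamma subunit of the epithelial sodium channel, averaged 1.38 ± 0.46 CPM under spironolactone and 3.39 ± 1.55 CPM under vehicle (SD, n = 3 each). Its groups overlapped because vehicle replicate 3, at 1.6 CPM, was as low as the spironolactone libraries. The 1 higher gene was Nedd4l, with a log2 fold change of 0.16 (SE 0.069). The other channel subunits went in both directions, Scnn1a at 0.25 (SE 0.11) and Scnn1b at -0.52 (SE 0.35). Scnn1a was higher without overlap, as were 16% of all genes, and neither subunit had an unadjusted p under 0.05.

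Per1 is part of the clock, of which 18 other genes were tested. At an unadjusted p under 0.05, 4 were lower and 4 higher (22.2% each), against 10.4% and 12.2% of all genes. The list had a median log2 fold change of 0.01. Nfil3, a repressor of the D-box genes, averaged 9.43 ± 0.458 CPM in spironolactone libraries and 16 ± 2.86 CPM with vehicle (SD, n = 3 each), a log2 difference of -0.77 (SE 0.14, adjusted p = 0.0678 by edgeR and 0.00098 by DESeq2). Npas2, a partner of Arntl, had -0.40, and Nr1d1, the repressor REV-ERB alpha, had 0.35. Per2, a paralog of Per1, was at -0.03 on the log2 scale (adjusted p = 0.871 by edgeR). Per3, another paralog, was at 0.24 (SE 0.10, adjusted p = 0.219 by edgeR), opposite in sign to Per1, and its groups overlapped. The labels give no time of day for tissue collection.

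Dusp1 and Per1 are also immediate-early genes, and of 18 others tested, 15 had negative log2 fold changes, with a median of -0.25. Among all genes, 51.6% had negative ones. At an unadjusted p under 0.05, 6 were lower (33.3%) and 1 higher (5.56%), against 10.4% and 12.2% of all genes. The list medians of log2 CPM relative to the vehicle mean overlapped between the groups. They were -0.09, -0.29 and -0.35 in the spironolactone libraries, against 0.26, -0.01 and -0.24 in the vehicle libraries. Atf3 and Egr2, inducible transcription factors, were lower by log2 fold changes of -0.66 for Atf3 (SE 0.13) and -0.72 for Egr2 (SE 0.15), each with an adjusted p of 0.0747 by edgeR. Klf4, an epithelial differentiation factor, was the 1 with a higher value, 236 ± 12 CPM in spironolactone libraries and 186 ± 8.79 CPM with vehicle (SD, n = 3 each, adjusted p = 0.0649 by edgeR). With both libraries numbered 3 left out, edgeR called 1 of the list lower and 1 higher at an adjusted p of 0.05, where 7.02% of all genes were called.

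Of 12 tested receptor chaperones and coregulators, 0 were lower and 2 higher (16.7%) at an unadjusted p under 0.05. The shares of all genes were 10.4% and 12.2%, and the median log2 fold change of the list was 0.01. Dnajb1 and Hsp90ab1, chaperones of the heat shock system, were at 0.26 (SE 0.075) and 0.19 (SE 0.077) on the log2 scale. Ppid, a cyclophilin of the receptor complex, had -0.20, and Fkbp4, which competes with Fkbp5 for the complex, had 0.04 (SE 0.074).

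Over all 13856 genes with a mean of at least 1 CPM, the gene whose log2 CPM most resembled each target across the 6 libraries was recorded by Pearson correlation, as a description. For Sgk1 it was Podxl, which encodes the sialomucin podocalyxin of endothelium (r = 0.998). Podxl had 182, 162 and 137 CPM with spironolactone, against 216, 233 and 176 CPM with vehicle. As for Sgk1, the groups overlapped because spironolactone replicate 1 stood above vehicle replicate 3. For Per1 it was Eif4g3 (r = 0.998), for Klf9 Macf1 (r = 0.991), for Dusp1 Tmem135 (r = 0.991) and for Tsc22d3 Aox4 (r = 0.982). For Fkbp5 and Zbtb16 they were LOC100912399 (r = 0.990) and AABR07068341.1 (r = 0.992), to which no role is given here. With 6 libraries many genes reach such values: 199 genes had r of at least 0.95 with Sgk1 and 7 with Fkbp5.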

How the data were processed

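RNA-seq libraries were grouped by the treatment and day in their titles. The day 3 files hold the authors' expected counts and TPM values per gene, in the layout of RSEM gene results, per the file headers. The submitters' processing notes name STAR 2.5.3a, RSEM 1.2.28 and the builds Rnor_6.0 and rn6, with no roles. The deposited expected counts were rounded to whole numbers. A line that names no gene held 0.12% to 0.181% of counts and was left out. Genes were kept by edgeR's filter with a minimum count of 10 and scaled by TMM; robust quasi-likelihood tests were run in edgeR 4.0.16 (R 4.3.3), with Benjamini-Hochberg adjustment over all genes and a threshold of 0.05. Each standard error is the log2 fold change over the root of F, and 95% intervals use the test's degrees of freedom. CPM values are TMM-scaled; the deposited TPM values were used for levels between genes and for marker sums. Alternatives were DESeq2 1.42.0, limma-voom 3.58.1, other scalings and filters, length offsets, replicate blocks and left-out libraries. The tests were checked on simulated data. No source says whether strand was used in counting, so overlapping and antisense genes may share reads. Within groups, libraries differed beyond sampling noise (chi-square per gene 7.91 to 23.7). Counting errors cover sampling of reads only.

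The 7 genes and the lists were chosen with earlier results of these data known. The other genes named are both receptors, the 3 tested genes with the lowest p of each list, and the gene most like each of the 7; others were named after their values were seen. No file used here pairs day 7 identifiers with symbols, so the planned day 7 test was not run. The values of 1 marker gene are not reported here.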

Additional observations from a re-analysis of the deposited data

How the results depend on the processing

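Depth limits Zbtb16 most, with 57 to 164 expected counts a library. Over 15 alternatives, Sgk1, Tsc22d3, Per1, Zbtb16 and Klf9 kept their direction. The count of genes called at day 3, 0 in the edgeR fit, was 1344 with DESeq2, 148 with no filter on low counts and 1040 with both libraries numbered 3 left out. It was 0 to 781 with each library left out in turn, with 781 without vehicle replicate 3 and 40 without vehicle replicate 1. Sgk1 passed the threshold with DESeq2 (log2 fold change -0.35) and with both libraries numbered 3 left out (-0.35, adjusted p = 0.0358 by edgeR). Fkbp5 changed sign with limma-voom, at -0.000755, and Dusp1 with both libraries numbered 3 left out, at 0.20. The causes of these shifts were not tested. With each library left out, log2 fold changes ran from -0.44 to -0.26 for Sgk1, -0.12 to 0.30 for Fkbp5, -0.15 to -0.02 for Tsc22d3, -0.51 to -0.31 for Per1, 0.83 to 1.40 for Zbtb16, -0.40 to -0.25 for Klf9 and -0.38 to 0.14 for Dusp1. RLE scaling and scaling without muscle, retina, lens and mitochondrial genes moved none of the 7 across the threshold.

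Same-numbered libraries did not deviate together (r = 0.09, -0.08 and 0.05 for numbers 1 to 3), so the numbers were not taken as pairs. With the replicate block, edgeR called 0 genes, and the log2 fold changes were -0.36 for Sgk1, 0.03 for Fkbp5, -0.11 for Tsc22d3, -0.43 for Per1, 1.00 for Zbtb16, -0.31 for Klf9 and -0.18 for Dusp1. The block moved none of the 7 across the threshold.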

Other observations

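Relatives of the 7 genes had values in both directions. At an unadjusted p under 0.05, 4 of 11 tested relatives were lower (36.4%) and 3 higher (27.3%), against 10.4% and 12.2% of all genes. None of the 11 passed edgeR at an adjusted p of 0.05, as for all genes. Zbtb20, a zinc finger gene of the Zbtb16 family, averaged 36.1 ± 1.32 CPM in spironolactone libraries and 48.8 ± 5.19 CPM in vehicle libraries (SD, n = 3 each), a log2 fold change of -0.44 (adjusted p = 0.0736 by edgeR), where Zbtb16 had a positive one. Sgk3, a kinase of the Sgk1 family, averaged 34.2 ± 1.31 CPM in spironolactone libraries and 26.6 ± 2.83 CPM in vehicle libraries (log2 fold change 0.36, adjusted p = 0.0844 by edgeR), where Sgk1 had a negative one. Tsc22d1 had a log2 fold change of -0.38 (SE 0.11), where Tsc22d3 had -0.11. These differences between relatives were not tested.

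Of 9 tested MAP kinase phosphatases beside Dusp1, 7 had negative log2 fold changes (77.8%, against 51.6% of all genes), with a median of -0.23. At an unadjusted p under 0.05, 2 were lower (22.2%) and 0 higher, against 10.4% and 12.2% of all genes. Dusp4, at 21.3 ± 2.05 CPM in spironolactone libraries and 26.1 ± 1.74 CPM in vehicle libraries (SD, n = 3 each), was at -0.30 on the log2 scale (adjusted p = 0.135 by edgeR). Dusp2, at most 1.16 CPM in every library, had -0.84, and Dusp8 had -0.67 (SE 0.37).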
